A study of Curcuma longa with 2 samples.

Results

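The miR169, miR172 and miR394 families were examined in small RNA libraries of nanoparticles made from the root of turmeric, Curcuma longa. They were taken as all listed sequences whose first name holds miR or MIR followed by one of these 3 numbers. The rule found 7 of the 186 distinct sequences in the deposited table, on 13 of its 266 lines. Of these, 6 had reads, 2 in each family, among 167 sequences with reads in all. The study sequenced 2 samples of 1 group, called library 1 and library 2 here, with no control, treatment or second tissue. The labels name the material as turmeric nanoparticle, and say neither how old the plants were nor whether each library had its own preparation. Differences between the libraries may therefore be technical. Whether the RNA was inside the particles or came down with them cannot be told apart here. Summed over its lines, the table lists 96386 reads in library 1 and 72196 in library 2. These are totals of a miRNA list and not the sequencing depth.

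Plant miRNAs are cut from hairpin transcripts by a Dicer-like enzyme as short duplexes, and a single strand is kept in an Argonaute protein, where it pairs with target mRNAs over most of its length. miR169 is known to act on transcripts of NF-YA genes, which encode a subunit of the CCAAT-binding factor NF-Y and have roles in drought and nutrient responses. miR172 acts on AP2-type transcription factor genes that delay flowering and shape floral organs, and in Arabidopsis it rises with plant age as miR156 declines. miR394 acts on an F-box gene, LEAF CURLING RESPONSIVENESS in Arabidopsis, with roles in leaf shape and the shoot meristem.

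The 7 sequences are shown because the families differ in which form carried the reads. Each is written 5′ to 3′ with T for U as in the table, and capitals mark the seed, bases 2 to 8. Substitutions are relative to the registered form that the table names, with the registered base first, and positions counted from 1 at the 5′ end of the listed sequence.
miR169n with A21C: tAGCCAAGaatgacttgcctc
miR169b with 1 base more at the 5′ end, 1 fewer at the 3′ end and G11A: tTAAGCCAagaatgacttgcc
miR172a, identical to the registered rice form: aGAATCTTgatgatgctgcat
miR172a with T21C: aGAATCTTgatgatgctgcac
miR394 with T8C: tTGGCATCctgtccacctcc
miR394 with C19T: tTGGCATTctgtccaccttc
miR394, identical to the registered peanut form: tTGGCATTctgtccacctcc

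By seed these fall into 5 groups. Both miR172 forms share GAATCTT, and the miR394 form with C19T shares TGGCATT with the registered miR394. The T8C form of miR394 has TGGCATC, so its difference from the registered form lies inside the seed. The miR169 forms share a run of 18 nt, which starts at base 2 of the miR169n form and at base 4 of the miR169b form, so their seeds AGCCAAG and TAAGCCA are out of step by 2 bases. No sequence of another family with reads had any of these seeds, and none shared a run of 15 nt or more with a member.

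Together the 3 families held 1.14% of the listed reads in library 1 and 1.01% in library 2, or 1.07% ± 0.087 (SD, n = 2). miR169 had 642 reads in library 1 and 434 in library 2, miR394 had 273 and 177, and miR172 had 179 and 120. All 6 sequences with reads stand on 2 lines with equal values, and these counts are the sums of both lines. For 3 of the 6 a single line held a fractional value and for 0 of them the sum did. Whether the lines divide a count or repeat it is not settled. If they repeat it, the read numbers of the members given here are 2 times too high. The totals behind the shares would then be 64396.5 in library 1 and 49275.7 in library 2, from a single line per sequence. In shares, miR169 stood at 0.63% ± 0.046, miR394 at 0.26% ± 0.027 and miR172 at 0.18% ± 0.014 (SD, n = 2 each). The ranges of the 3 families over the libraries did not overlap. Families were called ordered if both libraries gave the same order and the log2 ratio, averaged over the libraries, was larger than its SD. By this rule miR169 exceeded miR394 by 2.40-fold and miR172 by 3.60-fold. miR394 exceeded miR172 by 1.53-fold in library 1 and 1.48-fold in library 2, and was also ordered above it. No p was attached, since with 2 libraries a two-sided exact sign-flip permutation test cannot go below 0.5. Without entries that have only a loose match (a first name on an unregistered arm or with 2 substitutions) the total is smaller, and the shares were 1.01% for miR169, 0.42% for miR394 and 0.28% for miR172.

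Counting error alone gave exact Clopper-Pearson 95% intervals that do not overlap between the families in library 1. They ran from 0.616% to 0.719% for miR169, 0.251% to 0.319% for miR394 and 0.160% to 0.215% for miR172. In library 2 they were 0.546% to 0.660%, 0.210% to 0.284% and 0.138% to 0.199% in the same order, again apart. With a single line per sequence, miR394 and miR172 overlapped in library 2, at 0.145% to 0.222% and 0.0929% to 0.157%, and the other pairs stayed apart in both libraries. The intervals hold for counting error and nothing else, because the reads carry no molecular identifiers and copies of 1 molecule may be counted repeatedly. Whether different sequences were recovered equally in library preparation was not tested, so orders and fold values here are those of listed reads.

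Among the 43 registered families with reads, miR169 ranked 13 by mean share, miR394 ranked 18 and miR172 ranked 21. The next above miR169 was miR164, which acts on NAC genes, at 0.65% ± 0.021, and the pair was not ordered. The next below was miR5179 at 0.59% ± 0.025, lower in both libraries (SD, n = 2 each). miR394 lay between miR167, which acts on auxin response factor genes, at 0.34% ± 0.0049 and miR11334 at 0.24% ± 0.015, and both pairs were ordered (SD, n = 2 each). miR172 was not ordered against either neighbour, miR160 at 0.20% ± 0.039 or miR395 at 0.17% ± 0.010 (SD, n = 2 each). The exact Clopper-Pearson 95% intervals of miR394 and miR11334 overlapped in both libraries, at 0.251% to 0.319% and 0.221% to 0.286% in library 1. Those of miR169 and miR5179 also overlapped in both, at 0.616% to 0.719% and 0.555% to 0.654% in library 1. Those of miR167 and miR394 overlapped in library 1 and were apart in library 2. Where intervals overlapped, the order rests on the rule above alone.

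**Figure D1:**
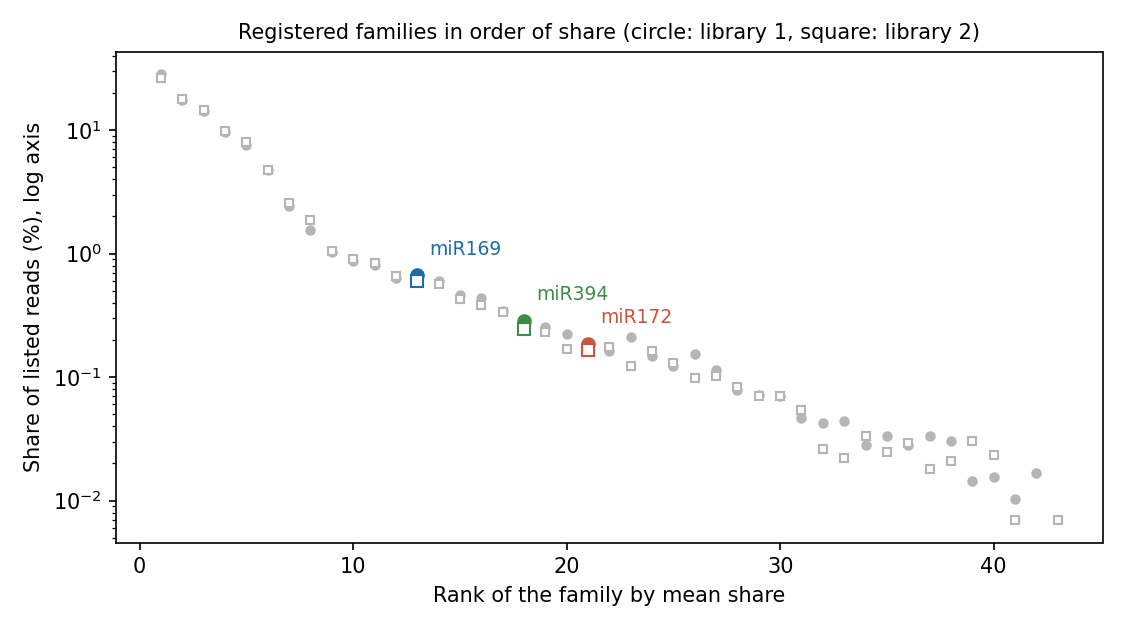
Share of listed reads in percent on a log axis against the rank of each registered family by mean share, with circles for library 1 and open squares for library 2. miR169, miR394 and miR172 stand at ranks 13, 18 and 21 of 43, below the families that make up most of the reads.

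A list of 11 other families whose known targets are mostly developmental regulators gave the wider setting, and 10 of them had reads. Of these 10, 7 lay above miR169 by mean share, 8 above miR394 and 9 above miR172, which left miR393 alone below all 3. These counts go by mean share alone, and include miR164 above miR169 and miR160 above miR172, pairs that were not ordered. Over all 14 families, miR169, miR172 and miR394 made up 1.78% ± 0.11 (SD, n = 2) of the reads. The miR156/miR157 family, which acts before miR172 in the age pathway of Arabidopsis, exceeded miR172 by 40.9-fold in library 1 and 47.8-fold in library 2.

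The miR169 reads lay almost wholly on the miR169n form with A21C. It had 602 reads in library 1 and 412 in library 2, came to 0.60% ± 0.038 of all listed reads, and ranked 23 among the 167 sequences (SD, n = 2). Within the family it made up 93.8% in library 1 and 94.9% in library 2. The miR169b form with G11A had 40 and 22 reads, or 0.036% ± 0.0078 (SD, n = 2). The A21C form was thus 15.1-fold above the other in library 1 and 18.7-fold in library 2. Both are 21 nt long with a first T, and neither is identical to the registered form of its name.

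miR394 was as concentrated, on the form with T8C. This sequence had 262 reads in library 1 and 167 in library 2, or 0.25% ± 0.029 (SD, n = 2), and ranked 31. It held 96.0% of the family in library 1 and 94.4% in library 2. The C19T form had 11 and 10 reads, so the T8C form exceeded it by 23.8-fold and 16.7-fold. The registered form, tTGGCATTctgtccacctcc, was listed at 0 in both libraries. No upper limit is given for it, because no line above 0 had fewer than 2.5 reads and low entries may have been left off. The forms of miR394 are 20 nt long, 1 nt shorter than those of miR169 and miR172.

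miR172 was divided more evenly. The form identical to registered miR172a had 118 reads in library 1 and 88 in library 2, which is 0.122% ± 0.00038 (SD, n = 2). The form with T21C, which differs from it in the last base only, had 61 and 32 reads, or 0.054% ± 0.013 (SD, n = 2). The registered form held 65.9% of the family in library 1, with an exact Clopper-Pearson 95% interval from 58.5% to 72.8%, and 73.3% in library 2, from 64.5% to 81.0%. These intervals overlap, while the intervals of the leading miR169 and miR394 forms started at 91.6% and 92.9% in library 1 and at 92.4% and 89.9% in library 2. The leading form was thus 1.93-fold above the other in library 1 and 2.75-fold in library 2. miR172a was the only member with reads that was identical to the registered form of its name.

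**Figure D2:**
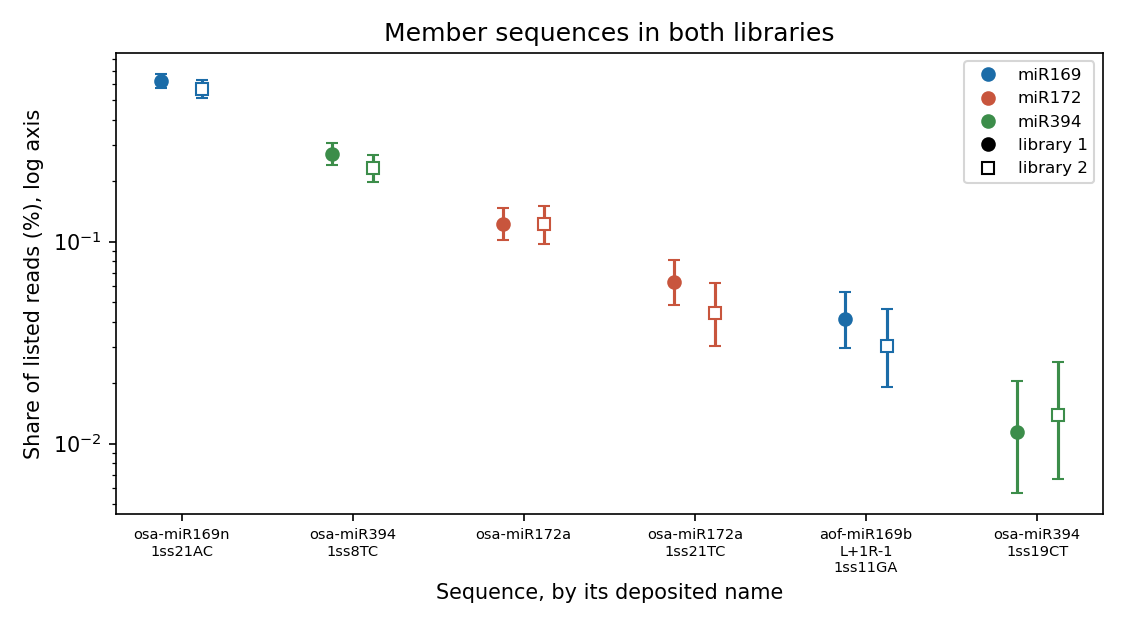
Share of listed reads in percent on a log axis for the 6 member sequences with reads, by deposited name, with filled circles for library 1, open squares for library 2 and bars for exact Clopper-Pearson 95% intervals. The miR169n form with A21C and the miR394 form with T8C stand far above the other form of their family, and the miR172 forms lie closer together.

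The first base set miR172 apart from the others. All 4 sequences of miR169 and miR394 with reads began with T, and both miR172 forms began with A. First A thus made up 16.4% ± 0.038 of the reads of the 3 families, against 6.39% ± 0.31 in the other registered families (SD, n = 2 each). None of the 6 sequences was loosely matched in this sense, against 60 of the 142 sequences of the other registered families. Those 60 held 39.9% ± 1.12 of the reads of the other registered families (SD, n = 2). The names covered by each cluster differed in number. The T21C form of miR172 was listed with 118 registered hairpins from 38 species codes, miR172a with 90 from 37, and each miR394 form with 53 from 29. The A21C form of miR169n was listed with 13 hairpins from 10 codes and the miR169b form with 2 from 2.

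The members were assigned to arms by the first line of each sequence. All miR169 and miR394 reads were assigned to the 5′ arm and all miR172 reads to the 3′ arm, in both libraries. The second line of the T8C form of miR394 is placed on a 3′ arm, that of a hairpin of 45 nt, and counted line by line the 5′ arm held 52.0% of miR394 in library 1 and 52.8% in library 2. Of the 26 registered families with at least 2 sequences with reads, 17 had sequences on both arms, again by the first line. The other 9, these 3 among them, had sequences on a single arm. Each of these 3 had only 2 sequences with reads, against 12 in miR319, and fewer sequences leave less room for both arms. No other sequence among the entries used here lay on the opposite arm of a member's hairpin, by exact match. The segments that pair with the leading form of each family, in its first hairpin, are shown to give the strand that had no listed reads.
miR169n opposite segment: ggcaagtcatcttggcta
miR172a opposite segment: gtgcggtatcatcaagattc
miR394 opposite segment: ggaggtggacatagctgccaa

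The table listed 12 hairpins for the 6 sequences, 2 for each, with a contig and a position on a genome whose assembly the sources do not name, so genes around them were not looked up. In 9 of the 12 the sequence was present letter for letter, and in the other 3 the hairpin held a different base at 1 position. Those 3 were the second hairpins of the miR169n form with A21C, of the miR172a form with T21C and of the miR394 form with T8C, with C21A, C21T and C8T, given as the listed base first and the hairpin's base last. In all 3 the hairpin held the registered form. The first hairpin of each held the listed form exactly. The substitutions relative to the registered names were thus present in the sequence the table gives for 1 locus of each. Of listed sequences outside the 3 families on 2 hairpins, 9 of 74 were identical to 1 hairpin only, 50 to both and 15 to none.

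The T8C form of miR394 is shown with both of its listed hairpins, because this base is in the seed and the loci differ in it. Capitals mark the stretch that the sequence matches, and its base 8 is C in the first hairpin and T in the second.
miR394 first hairpin: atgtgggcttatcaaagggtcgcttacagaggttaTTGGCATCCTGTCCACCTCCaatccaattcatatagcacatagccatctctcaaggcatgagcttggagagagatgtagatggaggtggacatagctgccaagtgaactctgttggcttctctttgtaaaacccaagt
miR394 second hairpin: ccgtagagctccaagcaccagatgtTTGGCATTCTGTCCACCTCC
The first spans 51327481 to 51327653 on the minus strand of contig WXZB01007556.1 and is 173 nt long. In its listed structure 17 of the 20 bases of the miRNA were paired, and base 8 was not. The authors gave it a free energy of -73.6 kcal/mol and a free energy index, the energy per length and GC percent, of 0.9. The second spans 131449133 to 131449177 on the minus strand of a contig deposited as WXZB01755556.1 and is 45 nt long. That name resembles WXZB01075556.1, which other lines carry, and may be a typing error. It ends with the last base of the miRNA, which the table places on its 3′ side, and 9 of 20 bases were paired. Its free energy was -10.5 kcal/mol and its index 0.4. The legend of the table gives cutoffs of -15 kcal/mol for the energy and 50 nt for the length, and this hairpin, 33 nt long by the authors' measure, met neither. The same held for 50 of the 239 listed hairpins outside the 3 families. The line of each hairpin carried 131 reads in library 1 and 83.5 in library 2. The table thus gave the same value to both, although only the first holds the sequence.

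The other 11 hairpins were 103 to 192 nt long, with free energies from -85.4 to -49.3 kcal/mol. The first hairpin of the leading miR169n form lies at 3143 to 3334 on the minus strand of contig WXZB01029035.1, with 18 of 21 bases paired. That of miR172a lies at 184 to 307 on the plus strand of contig WXZB01025063.1, with 20 of 21 paired, the most of any member. Between the hairpins of 100 nt or more listed for 1 sequence, identity in a global alignment was 66.2% to 79.2% over 5 pairs, and between forms of 1 family it was 51.0% to 70.5% over 10 pairs. Across families it was 38.0% to 54.2% over 40 pairs. No hairpins listed for the same member were identical.

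**Figure D3:**
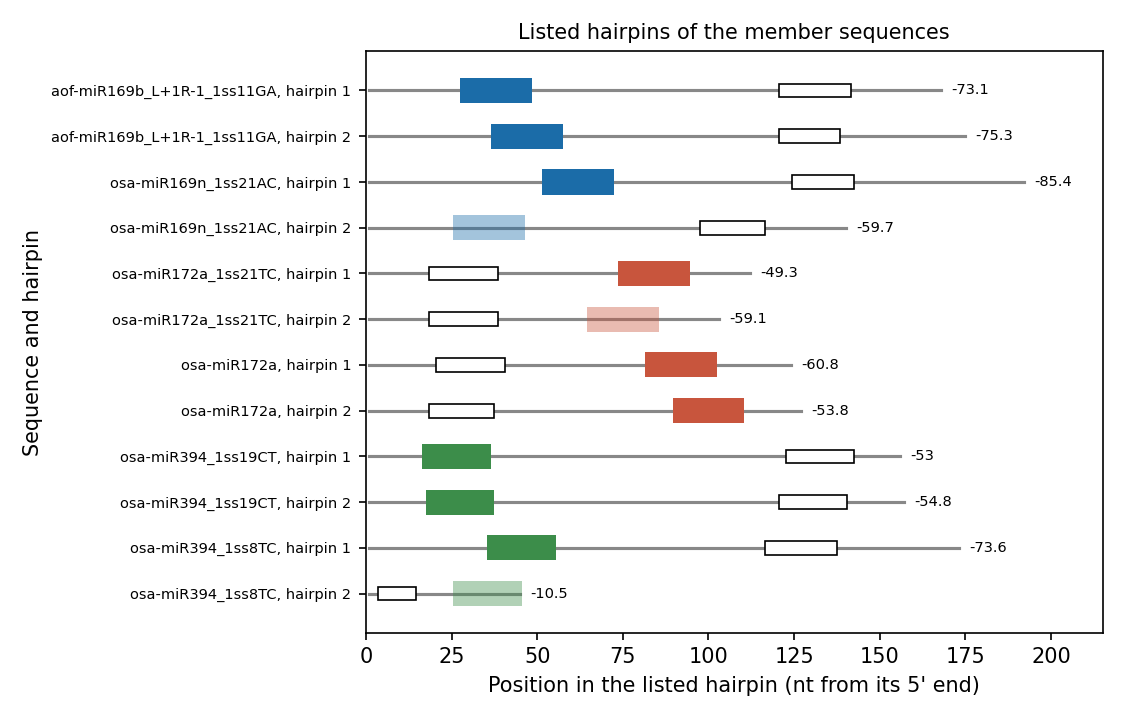
The 12 listed hairpins by position in nt from the 5′ end, with the member sequence as a coloured box (pale where the hairpin differs from it by 1 base), the paired opposite segment as an open box and the authors' free energy in kcal/mol at the right. miR169 and miR394 lie on the 5′ side and miR172 on the 3′ side, except in the 45 nt hairpin of miR394, where the sequence ends the hairpin.

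The last comparison was between the libraries. As shares of listed reads, miR169 was 1.11-fold, miR172 1.12-fold and miR394 1.16-fold higher in library 1, and each direction turned with the factors of the authors' normalized columns, to 1.23-fold, 1.22-fold and 1.18-fold higher in library 2. Those factors move the median log2 ratio of all sequences to -0.45, against 0.00 with listed totals. In a two-sided exact binomial test per family over 42 families, 11.9% were called at an adjusted p of 0.05. None of the 3 was among them, with Benjamini-Hochberg adjusted p of 0.31 for miR169, 0.39 for miR394 and 0.69 for miR172. With the authors' factors 21 of the 42 families, or 50%, were called, miR169 among them.

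By sequence, the same test called 20 of 153, or 13.1%, and 0 of the 6 members. Without adjustment 32 sequences had a p below 0.05, again with no member among them. With the authors' factors 58 sequences, or 37.9%, were called, of which 1 was a member, the A21C form of miR169n. The smallest p among the members with listed totals was 0.107, for the T8C form of miR394 (exact binomial test, adjusted p = 0.382). This form was 1.18-fold higher in library 1, a direction that turned with the authors' factors. The T21C form of miR172 was 1.43-fold higher there and the miR169b form 1.36-fold (exact binomial tests, adjusted p = 0.393 and 0.664), against 1.05-fold and 1.00-fold with the authors' factors. miR172a stood at 1.00-fold of library 2 with listed totals and 0.74-fold with the authors' factors. The C19T form of miR394 stood at 0.82-fold of library 2 with listed totals and 0.61-fold with those factors (exact binomial tests with listed totals, adjusted p = 1 for miR172a and 0.95 for the C19T form). Both kinds of test set 1 library against the other and do not extend to further preparations. A p that misses the threshold does not show that the libraries are alike in these families.

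**Figure D4:**
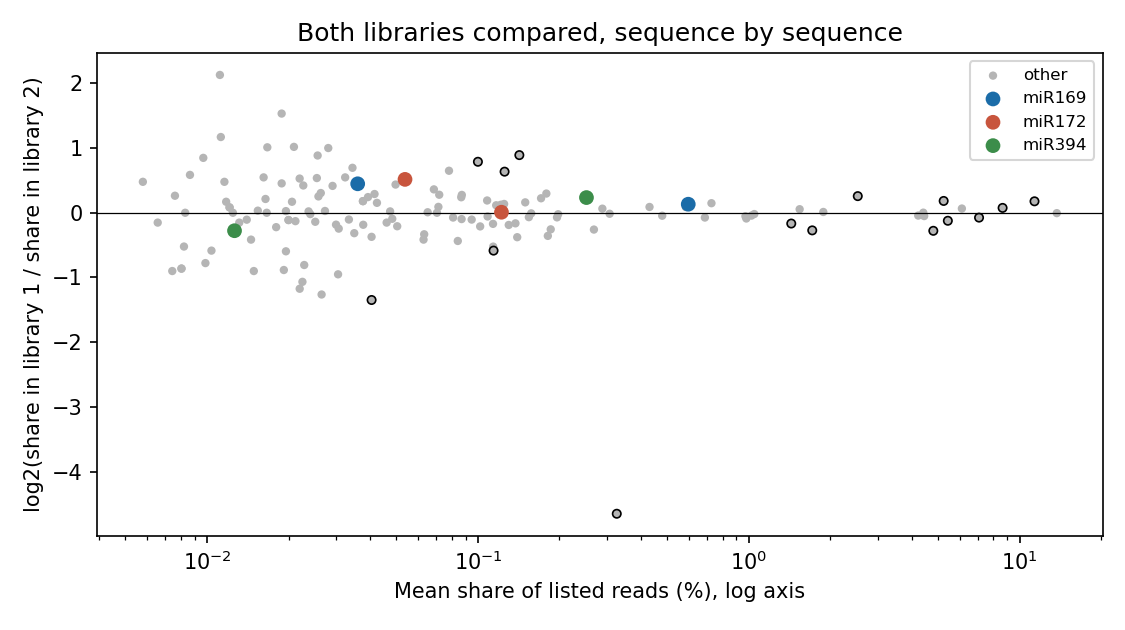
log2 ratio of the share in library 1 to that in library 2 against the mean share in percent on a log axis, for sequences with reads in both libraries and at least 10 in total, with a black rim where the adjusted p was below 0.05. The 6 members are in colour, and none has a rim.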

How the data were processed

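RNA was extracted with the miRNeasy kit and sequenced as Illumina TruSeq small RNA libraries, per the labels' protocols. CASAVA 1.8.4 and cutadapt 1.10 appear in the submitters' processing notes, with no step assigned to them. The authors mapped reads to known miRNAs and hairpins of chosen species in miRBase, per the file headers. Its release, the aligner and the assembly are not stated there. The deposited raw columns hold expected counts of reads per line, some of them fractional. The deposited normalized signal equals the raw column times 0.508 in library 1 and 0.923 in library 2, by a method that is not stated. The free energy in kcal/mol and its index, a score, were taken from the authors' table.

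Of 278 lines below the header, 12 are empty here and were not analysed, so totals, ranks and values of 0 cover the remaining entries, and 2 value columns match no sample of the series and were not used. Lines with the same sequence were summed, although equal values on 2 lines may repeat a count rather than divide it, which the single-line setting stands for, and a family is that of the first name. Shares are percent of all listed reads, with exact Clopper-Pearson 95% intervals, so the listed reads set the precision. Libraries were compared by a two-sided exact binomial test against the ratio of listed totals, over sequences or families with at least 10 reads in total. Fractional sums were rounded to whole reads, and p was adjusted by Benjamini-Hochberg over all that were tested. Hairpins were aligned globally (match 1, mismatch -1, gap opening -2, extension -0.5), and pairing was read from the deposited structures. Every sequence of the 3 families was to be accounted for, and families outside them were named only as neighbours in rank or from the development list. The members and lists were chosen with earlier results of these data known. Single-line values, registered names as the denominator, leaving out loosely matched entries, other read minimums and another scaling were tried as other settings. The test by family and the authors' factors as scaling were added after seeing the data. Python 3.11.15, pandas 2.3.3, SciPy 1.17.1, NumPy 2.4.6, Biopython 1.88 and matplotlib 3.10.9 were used.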

Additional observations from a re-analysis of the deposited data

How the results depend on the processing

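With the value of a single line per sequence, the reading in which lines repeat a count, miR169 held 0.469%, miR394 0.196% and miR172 0.130%, and 12 sequences differed between the libraries. Without loosely matched entries the shares were 1.01%, 0.42% and 0.28%, because the denominator is smaller. The order of the 3 families was the same in both settings, at ranks 14, 19 and 25 of 43 and 10, 15 and 16 of 28. With the authors' factors as scaling, chosen after seeing the data, 58 sequences and 21 families differed. The log2 ratio of library 1 to library 2 turned to -0.30 for miR169, -0.24 for miR394 and -0.28 for miR172 (exact binomial tests, adjusted p = 0.0029, 0.14 and 0.14). It also turned to -0.31 for the A21C form of miR169n and -0.21 for the T8C form of miR394. For miR172a it moved from 0.0063 to -0.44. The authors' factors set 1.82 expected reads in library 1 per read in library 2, against 1.34 with listed totals. Each scaling uses 1 ratio for all sequences, so every log2 ratio moved by the same amount. Why these factors differ from the listed totals was not tested. In the other settings 0 of the 6 members were called, with a lowest adjusted p between 0.345 and 0.779 (exact binomial tests). Single libraries gave 0.601% to 0.666% for miR169, 0.245% to 0.283% for miR394 and 0.166% to 0.186% for miR172. A mean of 2 values always has each of them within 1 SD, so these ranges say nothing of stability. The shares within families could not change with the way lines were counted, because all 6 members stand on 2 lines with equal values. No paired analysis was possible because both libraries belong to 1 group. The 11 and 10 reads of the C19T form of miR394 limit what can be said of it.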
